A study of Mus musculus with 8 samples.

Results

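The genes described here encode SR proteins, core proteins of the U1, U2 and U5 small nuclear ribonucleoproteins (snRNPs), SR protein kinases and SR-related cofactors of the nuclear matrix. They are 36 of the 23171 gene symbols in the deposited count table, chosen by symbol, and all 36 passed the filter on low counts. RNA came from the epidermis of 8 mice, with keratinocytes given as the cell type. Imiquimod, which activates a Toll-like receptor and inflames mouse skin in a psoriasis-like way, had been given to all of them. In the cKO group (4 libraries) Hnrnp-u, gene symbol Hnrnpu, had been knocked out specifically in the epidermis, and the WT group (4 libraries) served as control. All libraries are labelled as the same batch. The sources used here give neither the driver of the knockout and the exons removed nor the age and sex of the mice or the duration of treatment. The comparison asks whether transcripts for the splicing machinery differ between the genotypes.

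Splicing removes introns in the spliceosome, which the U1, U2 and U4/U6.U5 snRNPs build anew on each intron. SR proteins carry RNA-recognition motifs and a tail rich in arginine and serine, bind exons and recruit U1 and the U2 auxiliary factor U2AF to nearby splice sites. CLK and SRPK kinases phosphorylate that tail and so set where SR proteins are and how active they are. SR protein genes hold their own output in check through alternative exons with early stop codons, whose inclusion sends the transcript to nonsense-mediated decay. hnRNP-U, a nuclear RNA-binding and scaffold protein, is known to affect splicing and to take part in maturation of the U2 snRNP.

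Libraries held 37158621 to 38865722 counts, and the 36 genes took 0.442% ± 0.0429 of them in cKO and 0.443% ± 0.0227 in WT (SD, n = 4 each). Levels of a gene are given as CPM, its counts scaled to library size with TMM factors. Keratinocyte markers (Krt5, Krt14, Krt1, Krt10, Ivl and Dsg3) summed to 58415 to 83312 CPM in cKO and 66119 to 86936 CPM in WT. Fibroblast, endothelial and muscle markers summed to at most 9.92, 1.63 and 0.520 CPM in any library. Hnrnpu stood at 189.8, 373, 355 and 312 CPM in cKO replicates 1 to 4 and at 455, 424, 431 and 439 CPM in WT replicates 1 to 4. All 4 cKO libraries lay below all WT libraries, but Hnrnpu transcripts were still present in each, with a log2 fold change of -0.51 ± 0.19 (SE, cKO over WT, edgeR adjusted p = 0.191). The libraries are epidermal bulk RNA, so fewer cells with a transcript and less of it per cell cannot be told apart in any value below.

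None of the 36 splicing genes passed the test between genotypes. The edgeR quasi-likelihood test over 14004 genes, with Benjamini-Hochberg adjustment, called 1.32% of all genes at an adjusted p below 0.05 (0.671% higher and 0.65% lower in cKO), and the adjusted p of these 36 ran from 0.135 for Srrm1 to 0.999 for Srsf3. Their log2 fold changes ran from -0.40 for Srsf5 to 0.28 for Tra2a, 14 above and 22 below 0, with a median of -0.02 beside 0.01 for all tested genes. An unadjusted p below 0.05 was found for 4 of the 36 (11.1%), which are Srrm1, Srsf2 and Sf3b1 on the lower side and Tra2a on the higher side, against 18.6% of all tested genes. DESeq2 called 2, Srrm1 (adjusted p = 0.0342) and Sf3b1 (adjusted p = 0.0472), where it called 8.63% of all tested genes.

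The 95% confidence interval of the fold change lay within a 1.5-fold change in either direction for 33 of the 36 genes (91.7%), against 46.2% of all tested genes and 72.4% of the 5569 tested genes whose mean CPM lies in the range of these 36. The other three were Srsf2 (log2 interval -0.63 to -0.08), Srsf5 (-0.86 to 0.06) and Snrpd1 (-0.22 to 0.62). Every interval lay within a 2-fold change. Single genes had 708 to 14982 counts per library.

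**Figure D1:**
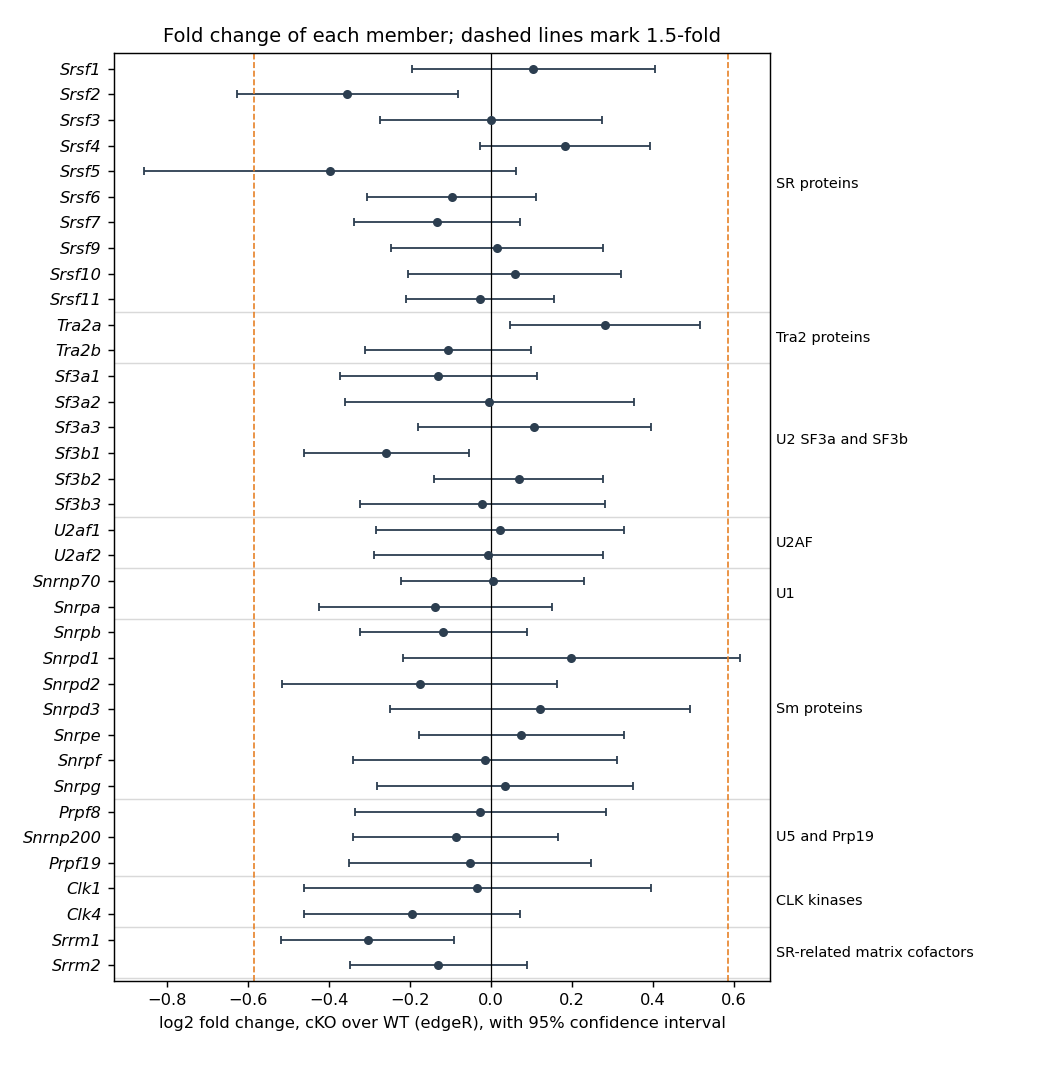
Log2 fold change of each of the 36 genes (cKO over WT, edgeR, x axis) with its 95% confidence interval, grouped by role on the y axis. Dashed lines mark a 1.5-fold change, which the intervals of Srsf2, Srsf5 and Snrpd1 cross.

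Levels of different genes were compared on the deposited FPKM values, which are scaled by gene length. The mean over 8 libraries ran from 7.55 FPKM for Clk4 to 196 FPKM for Snrpg, and the 2 highest, Snrpg and Snrpe (189 FPKM), are both small Sm proteins. Next came Snrpd2 (131), Srsf5 (122), Snrpd3 (116) and Srsf3 (112 FPKM). Among SR proteins Srsf4 was lowest at 9.23 FPKM. The large U5 proteins Prpf8 (18.2) and Snrnp200 (11.7 FPKM) sat in the lower part of the range. Neighbours in this order overlapped in their 8 libraries, except that every Snrpe value was above every Snrpd2 value.

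**Figure D2:**
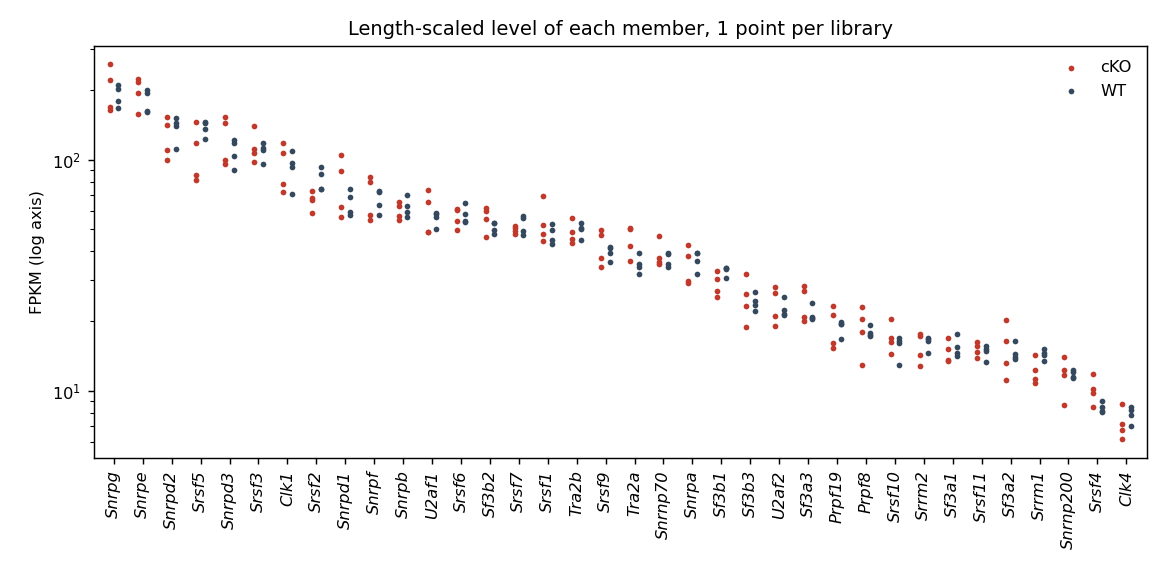
Deposited FPKM of each gene on a log axis, ordered by the mean over all libraries, with 1 point per library (cKO red, WT dark blue). Levels run from Snrpg on the left to Clk4 on the right, and within each gene the points of both genotypes lie over each other or side by side.

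SR proteins were followed by name. Srsf2, an SR protein with a role in transcription elongation as well as splicing, stood at 208, 279, 221 and 224 CPM in cKO replicates 1 to 4 and at 305, 271, 276 and 339 CPM in WT replicates 1 to 4. Replicates 1, 3 and 4 of cKO were below every WT library, while cKO replicate 2 lay inside the WT range. In deposited FPKM all 4 cKO libraries were below all WT libraries. The closest values were 73.3 FPKM in cKO replicate 2 and 74.3 FPKM in WT replicate 2. The log2 fold change was -0.35 ± 0.12 (SE, edgeR adjusted p = 0.165). In the GENCODE M21 annotation 15.6% of the exon bases of Srsf2 are shared with Mettl23 and 9.74% with Mfsd11, both on the opposite strand. The sources used here do not give the strand setting of the counting, so reads of these genes and of Srsf2 cannot be told apart there. They do not name the annotation of the counts either. The counts and FPKM imply 3553 bases for Srsf2, which is not its length in GENCODE M21 exon bases. Such shares, here and below, describe GENCODE M21 and need not hold for the exons that were counted.

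Srsf3, a small SR protein that also couples splicing to mRNA export, had the highest mean CPM of the SR genes. It stood at 286, 297, 235 and 335 CPM in cKO replicates 1 to 4 and at 288, 255, 297 and 313 CPM in WT replicates 1 to 4. The genotypes overlapped throughout, at a log2 fold change of 0.00 ± 0.12 (SE, edgeR adjusted p = 0.999), and the lowest and the highest value were both from cKO, in replicates 3 and 4. Srsf1, the founding SR protein, showed the same 2 libraries at its extremes, with 289, 284, 230.0 and 356 CPM in cKO replicates 1 to 4 against 289, 247, 260.4 and 281 CPM in WT. Its log2 fold change was 0.11 ± 0.13 (SE, edgeR adjusted p = 0.721).

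Srsf5, an SR protein whose transcript responds to growth and stress signals in many cells, had the widest spread in cKO and is named after its values were seen. It stood at 138, 252, 179 and 123 CPM in cKO replicates 1 to 4 and at 234, 227, 209 and 239 CPM in WT replicates 1 to 4. Replicate 2 of cKO was above every WT library and replicates 1, 3 and 4 below every WT library. The SD of log2 CPM was 0.458 in cKO and 0.0849 in WT, and the log2 fold change -0.40 ± 0.20 (SE, edgeR adjusted p = 0.336) rests on which cKO libraries enter. Without cKO replicate 2 it was -0.62 (edgeR adjusted p = 0.0451), and without cKO replicate 4 it was -0.26 (adjusted p = 0.491).

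The other SR genes lay between -0.13 for Srsf7 and 0.18 for Srsf4 in log2 fold change, with adjusted p from 0.330 to 0.967 by edgeR. These were Srsf4, Srsf6, Srsf7, Srsf9, Srsf10, which acts as a repressor when dephosphorylated, and Srsf11. Srsf11 had the smallest spread of the 36 over all 8 libraries, with 99.9, 101, 99.2 and 102 CPM in cKO and 106, 93.2, 108 and 104 CPM in WT. For Srsf4, 43% of the annotated exon bases are shared with the opposite-strand gene Gm12992.

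Both Tra2 genes encode SR-like activators that bind purine-rich exonic enhancers. Tra2a stood at 114, 106, 128 and 126 CPM in cKO replicates 1 to 4 and at 94.5, 89.02, 111 and 95.2 CPM in WT replicates 1 to 4. Replicates 1, 2 and 4 of WT were below every cKO library, and WT replicate 3 was above cKO replicate 2 only. The log2 fold change was 0.28 ± 0.10 (SE, 95% interval 0.05 to 0.52, edgeR adjusted p = 0.194). Tra2b stood at 167, 171, 167 and 189 CPM in cKO replicates 1 to 4 and at 182, 170.0, 204 and 190.0 CPM in WT replicates 1 to 4, at -0.11 ± 0.09 (edgeR adjusted p = 0.577), with the genotypes overlapping.

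Because the paralogs had fold changes of opposite sign, the log2 ratio of Tra2a to Tra2b FPKM is given for each library. It was -0.11, -0.25, 0.06 and -0.15 in cKO replicates 1 to 4 and -0.51, -0.49, -0.43 and -0.56 in WT replicates 1 to 4. All 4 cKO libraries were above all WT libraries, with means of -0.11 ± 0.13 and -0.50 ± 0.05 (SD, n = 4 each, difference 0.39). A two-sided exact permutation test gave p = 0.0286, which is its lower limit for groups of 4. Adjusted over the 7 pairs compared, the exact permutation p was 0.200. The ratio was looked at because of fold changes in these same libraries, a choice that the adjustment does not cover. In linear terms Tra2a stood at 0.926 times Tra2b in cKO and 0.708 times in WT. The other 6 ratios overlapped between genotypes, with exact permutation p from 0.0857 for Srrm1/Srrm2 (difference -0.18) to 0.857 for U2af1/U2af2 (0.02). Between these lay Srsf4/Srsf6 (0.28), Clk1/Clk4 (0.15), Srsf3/Srsf7 (0.12) and Srsf1/Srsf9 (0.09).

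The U2 snRNP recognises the branch point, and its SF3a and SF3b proteins hold it there. Sf3b1, the largest SF3b subunit, which clasps the branch-point helix, was 1 of the 2 genes whose genotypes did not overlap in CPM. It stood at 189, 216, 230.4 and 211 CPM in cKO replicates 1 to 4 and at 251, 238, 265 and 259 CPM in WT replicates 1 to 4. All 4 cKO libraries were below all WT libraries, at 83.6% of WT by edgeR (log2 fold change -0.26 ± 0.09 SE, 95% interval -0.46 to -0.05, edgeR adjusted p = 0.176). It was the most abundant U2 transcript on the CPM scale and had the smallest p of the 6. The remaining U2 genes Sf3a1 (-0.13), Sf3a2 (0.00), Sf3a3 (0.11), Sf3b2 (0.07) and Sf3b3 (-0.02) had overlapping genotypes and edgeR adjusted p of at least 0.560. For Sf3a2, 16.1% of the annotated exon bases are shared with the opposite-strand gene Plekhj1.

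U2AF binds the polypyrimidine tract and the 3′ splice site ahead of U2. U2af2, the large subunit, stood at 189, 146, 141 and 186 CPM in cKO replicates 1 to 4 and at 153, 166, 159 and 187 CPM in WT replicates 1 to 4. Its small partner U2af1 stood at 71.5, 56.8, 49.4 and 74.6 CPM in cKO replicates 1 to 4 and at 63.3, 63.03, 57.2 and 64.8 CPM in WT replicates 1 to 4. In both genes the cKO libraries spanned more than the WT range, with cKO replicates 1 and 4 high and replicates 2 and 3 low. The log2 fold changes were -0.01 ± 0.13 and 0.02 ± 0.14 (SE, edgeR adjusted p = 0.987 and 0.953).

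Of the proteins specific to U1, which marks the 5′ splice site, Snrnp70 stood at 184, 186, 166 and 211 CPM in cKO replicates 1 to 4 and at 193, 173, 200.04 and 178 CPM in WT replicates 1 to 4. Snrpa, which binds a stem-loop of the U1 RNA, stood at 59.7, 50.1, 42.9 and 61.6 CPM in cKO replicates 1 to 4 and at 61.1, 58.7, 52.4 and 63.5 CPM in WT replicates 1 to 4. Replicate 3 of cKO was the lowest library of all 8 for both, and cKO replicate 4 the highest for Snrnp70. Of the annotated exon bases of Snrpa, 11.03% are shared with BC024978 on the opposite strand. Log2 fold changes were 0.00 ± 0.10 and -0.14 ± 0.13 (SE, edgeR adjusted p = 0.986 and 0.611).

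Sm proteins form the ring on the U1, U2, U4 and U5 RNAs. None of the 7 Sm genes was called, 4 had a positive and 3 a negative log2 fold change, and the median was 0.04. Snrpd2 stood at 106, 87.9, 69.8 and 106 CPM in cKO replicates 1 to 4 and at 107, 108, 86.6 and 116 CPM in WT replicates 1 to 4, the highest mean CPM of the ring. Snrpb, with the smallest p of the ring, stood at 86.7, 96.5, 92.7 and 95.9 CPM in cKO replicates 1 to 4 and at 99.3, 96.8, 93.5 and 114 CPM in WT replicates 1 to 4. Log2 fold changes were -0.18 ± 0.15 and -0.12 ± 0.09 (SE, edgeR adjusted p = 0.574 and 0.531). In Snrpd2 cKO replicate 3 was the lowest library, whereas in Snrpb the cKO libraries lay close together and the highest value was from WT replicate 4.

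Snrpd1 had the widest cKO range of the ring and is named after its values were seen. It stood at 74.3, 55.99, 43.95 and 80.8 CPM in cKO replicates 1 to 4 and at 57.04, 49.5, 52.04 and 63.6 CPM in WT replicates 1 to 4. Replicates 1 and 4 of cKO were above every WT library and replicate 3 below every one, at 0.20 ± 0.18 (SE, edgeR adjusted p = 0.607). The others were Snrpd3 (0.12), Snrpe (0.08), Snrpf (-0.02) and Snrpg (0.04). For Snrpf 65.9% of the annotated exon bases are shared with Ccdc38 on the opposite strand. Sm genes have near-identical processed copies in the genome, and the sources used here do not say how shared reads were assigned.

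Prpf8, the central U5 scaffold of the catalytic core, stood at 151, 103, 125 and 159 CPM in cKO replicates 1 to 4 and at 128, 137, 136 and 148 CPM in WT replicates 1 to 4. The helicase Snrnp200, which unwinds U4 from U6, stood at 82.9, 62.8, 73.7 and 86.98 CPM in cKO replicates 1 to 4 and at 76.7, 84.95, 80.1 and 83.6 CPM in WT replicates 1 to 4. For both, cKO replicate 2 was the lowest of all 8 libraries and cKO replicate 4 the highest, so cKO spanned more than the WT range. Log2 fold changes were -0.03 ± 0.14 and -0.09 ± 0.11 (SE, edgeR adjusted p = 0.948 and 0.731). Prpf19, the ubiquitin ligase of the Prp19 complex, was at -0.05 ± 0.13 (edgeR adjusted p = 0.881).

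The kinases Clk1 and Clk4 phosphorylate SR proteins in the nucleus, and a large part of their own transcripts is known to be held in the nucleus with retained introns. Clk1 stood at 132, 209, 201 and 132 CPM in cKO replicates 1 to 4 and at 198, 182, 177 and 133 CPM in WT replicates 1 to 4. Clk4, the less abundant paralog on the FPKM scale, stood at 26.8, 33.5, 35.4 and 27.2 CPM in cKO replicates 1 to 4 and at 36.8, 31.4, 37.6 and 34.8 CPM in WT replicates 1 to 4. In cKO, replicates 1 and 4 were the 2 low libraries for both genes. The genotypes overlapped, with log2 fold changes of -0.03 ± 0.19 and -0.19 ± 0.12 (SE, edgeR adjusted p = 0.953 and 0.418).

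Srrm1 and Srrm2 are SR-related proteins without a classical RNA-recognition motif, known as cofactors of exonic enhancers and, for Srrm2, as a core of nuclear speckles. Srrm1 was the second gene with no overlap in CPM and had the smallest p of the 36. It stood at 62.3, 69.8, 77.6 and 66.2 CPM in cKO replicates 1 to 4 and at 81.7, 80.3, 88.5 and 90.1 CPM in WT replicates 1 to 4. All 4 cKO libraries were below all WT libraries, at 80.99% of WT by edgeR (log2 fold change -0.30 ± 0.10 SE, 95% interval -0.52 to -0.09, edgeR adjusted p = 0.135). The exact permutation p of Srrm1 and of Sf3b1 was 0.0286, the smallest possible, which every gene without overlap gets here. It is unadjusted and adds nothing to the lack of overlap. Srrm2 stood at 171, 163, 193 and 195 CPM in cKO replicates 1 to 4 and at 194, 179.8, 210.2 and 206 CPM in WT replicates 1 to 4, at -0.13 ± 0.10 (SE, edgeR adjusted p = 0.513), with overlap.

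Genotypes that did not overlap in CPM were found for 2 of the 36 genes (5.56%), both lower in cKO, against 11.1% of all tested genes (5.26% higher and 5.82% lower). In the deposited FPKM, which carry no TMM factors, both genes overlapped. Srrm1 was at 14.3 FPKM in cKO replicate 3 and 13.5 FPKM in WT replicate 2. Sf3b1 was at 32.9 and 30.8 FPKM in the same libraries. In Srrm1, Sf3b1 and Srsf2 the lowest of all 8 values was that of cKO replicate 1, which was also the library lowest in Hnrnpu. Among all 36 genes cKO replicate 1 was lowest for 6 (16.7%, against 13.4% of all tested genes). Replicate 3 of cKO was lowest for 17 (47.2%, against 17.9%). Without cKO replicate 1 the log2 fold changes of Srrm1, Sf3b1 and Srsf2 were -0.25, -0.20 and -0.30 in this order.

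**Figure D3:**
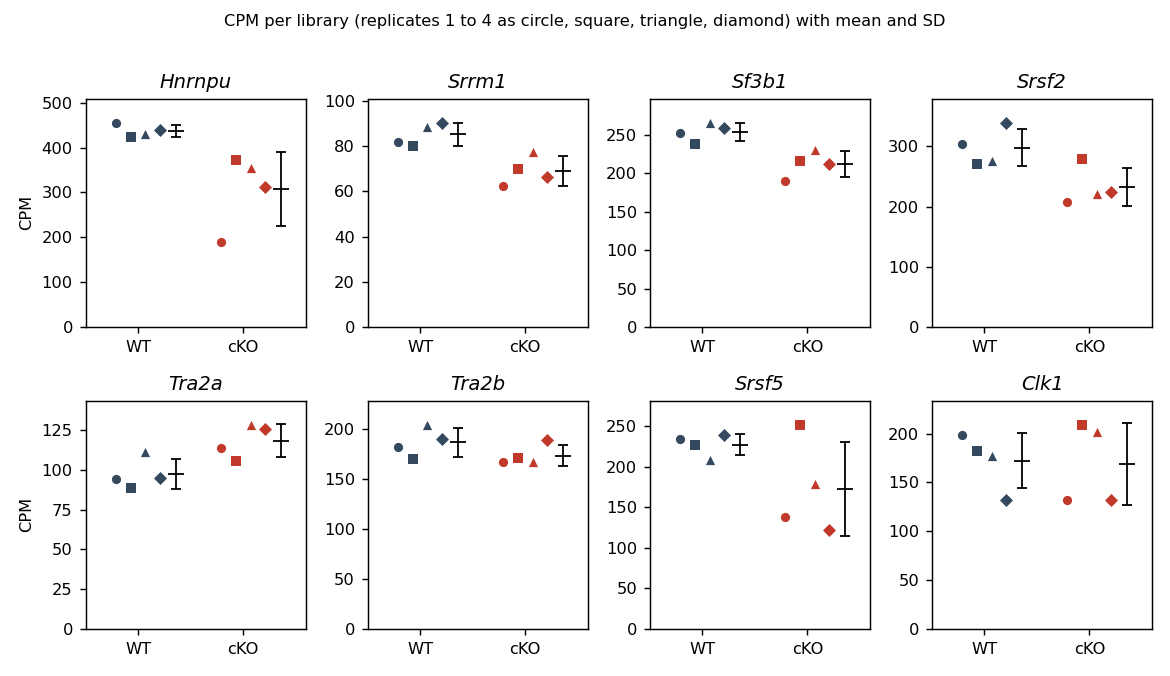
CPM in each library (y axis from 0) for Hnrnpu and 7 splicing genes, WT on the left and cKO on the right of each panel, with replicates 1 to 4 as circle, square, triangle and diamond, and mean ± SD in black. Srrm1 and Sf3b1 do not overlap between genotypes, Tra2a overlaps in 1 library of each genotype, and Srsf5 and Clk1 spread more widely within cKO than between the genotypes.

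The sequences ahead of the starts of 4 genes are shown, because these genes lie at the ends of the range. Srrm1 and Sf3b1 were lower in cKO with no overlap in CPM. Tra2a had the largest positive fold change, and Srsf5 had the largest negative fold change and the widest spread. The 4 genes were picked after their values were seen. Each is the 250 bases before the RefSeq start in GRCm38.p6, on the strand of the gene, and the sources used here do not name the build of the deposited files. Capitals mark exact matches on either strand to the GC box GGGCGG, the CCAAT box CCAAT, the ETS core CCGGAA, the cyclic AMP response element TGACGTCA and the 10-base NRF1 palindrome. Adjacent or overlapping matches run together in 1 stretch.
Srrm1 (chr4:135353147-135353396, minus strand): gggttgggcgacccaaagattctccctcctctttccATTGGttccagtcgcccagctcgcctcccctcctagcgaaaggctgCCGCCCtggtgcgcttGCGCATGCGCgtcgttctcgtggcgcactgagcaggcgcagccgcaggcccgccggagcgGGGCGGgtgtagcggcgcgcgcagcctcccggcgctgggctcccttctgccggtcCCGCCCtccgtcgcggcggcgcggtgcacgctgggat
Sf3b1 (chr1:55027479-55027728, minus strand): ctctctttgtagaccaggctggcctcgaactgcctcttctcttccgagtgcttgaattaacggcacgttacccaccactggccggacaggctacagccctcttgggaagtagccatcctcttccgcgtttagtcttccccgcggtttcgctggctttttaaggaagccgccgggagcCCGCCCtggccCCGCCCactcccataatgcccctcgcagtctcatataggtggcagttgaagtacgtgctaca
Tra2a (chr6:49264053-49264302, minus strand): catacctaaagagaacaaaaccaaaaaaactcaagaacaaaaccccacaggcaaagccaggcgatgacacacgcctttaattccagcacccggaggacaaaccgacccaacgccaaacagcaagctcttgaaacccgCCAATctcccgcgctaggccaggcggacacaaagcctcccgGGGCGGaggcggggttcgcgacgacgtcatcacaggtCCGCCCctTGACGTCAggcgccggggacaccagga
Srsf5 (chr12:80945249-80945498, plus strand): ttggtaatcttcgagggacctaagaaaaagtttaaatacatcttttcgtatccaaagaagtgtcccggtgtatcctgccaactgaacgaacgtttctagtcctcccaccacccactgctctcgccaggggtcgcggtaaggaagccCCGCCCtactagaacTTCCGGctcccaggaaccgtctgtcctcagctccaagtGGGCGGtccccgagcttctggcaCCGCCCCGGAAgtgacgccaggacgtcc
Srrm1 holds 3 GC boxes, 1 CCAAT box and 1 NRF1 palindrome, and Sf3b1 holds 2 GC boxes only. Tra2a holds 2 GC boxes, 1 CCAAT box and 1 cyclic AMP response element, and Srsf5 holds 3 GC boxes and 2 ETS cores. A match describes letters and not a bound site.

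Promoter windows in that table matched 32 of the 36 genes by symbol. These genes mostly start in CpG-rich sequence, with a median of 60.6% G or C and 19.5 CpG dinucleotides in 250 bases, against 59.6% and 15 for the 10988 tested genes with a window. The ETS core CCGGAA was in 16 of 32 windows (50.0%), against 21.6% for tested genes and 12.2% of all 27025 windows. The GC box was in 22 (68.8%, against 57.2% and 32.9%) and CCAAT in 13 (40.6%, against 36.1% and 34.5%). The cyclic AMP response element TGACGTCA was in 4 windows (12.5%, against 2.65% and 1.62%), those of Clk4, Snrpa, Snrpg and Tra2a. TATAAA was in 4 (12.5%, against 6.66% and 13%), the E-box CACGTG in 1 (3.12%, against 8.26% and 6.05%) and the NRF1 palindrome in 2 (6.25%, against 1.53% and 0.781%). All searches used both strands.

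The genes also share how they are annotated. In GENCODE M21, 11 of the 12 SR and Tra2 genes (91.7%) have at least 1 transcript marked as a target of nonsense-mediated decay, the exception being Srsf10. The share was 61.1% over all 36 (22 genes) and 28.0% of the 12491 tested protein-coding genes. Transcripts marked as retaining an intron were listed for 31 of the 36 (86.1%, against 58.3%), with 11 in Srsf11, 9 in Snrnp70, 7 each in Clk1 and Clk4 and 6 each in Sf3b2 and Srrm1. The deposited counts sum all transcripts of a gene, so a shift between productive and decay-targeted forms was not measured here.

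Within genotypes the cKO libraries were spread further apart than the WT libraries for 29 of the 36 genes (80.6%), which is not far from the share of all tested genes (69.8%) and of tested genes in the same CPM range (72.8%). The median SD of log2 CPM was 0.21 in cKO and 0.12 in WT. The extremes were concentrated in 2 libraries. Replicate 3 of cKO was the lowest of all 8 libraries for 17 of the 36 genes (47.2%, against 17.9% of all tested genes), and cKO replicate 4 was the highest for 13 (36.1%, against 16.5%). The median over the 36 genes of log2 CPM centred on the gene's mean was 0.08, -0.08, -0.14 and 0.16 in cKO replicates 1 to 4 and 0.04, -0.04, 0.00 and 0.12 in WT. Over all tested genes the same median stayed between -0.01 and 0.01 in every library, where TMM scaling tends to hold it. How far other gene sets of like size move was not computed.

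In 17 of the 20 snRNP, U2AF and Prp19 genes cKO replicates 1 and 4 were both above replicates 2 and 3, an order noticed in the values. Sf3b1 had the reverse order, and Snrnp70 and Snrpb had neither. Over all 36 genes 21 had this order and 6 the reverse, which were Srsf5, Srsf6, Sf3b1, Srrm1, Clk1 and Clk4. The order was not counted over all tested genes, so it cannot be called particular to these genes. Over the whole table cKO replicates 1 and 4 were also the closest cKO pair. Their chi-square was 69.0 per degree of freedom, against 119 to 247 for the other cKO pairs. The mean centred log2 CPM of the Sm genes was 0.18, -0.11, -0.28 and 0.22 in cKO replicates 1 to 4, and 0.07, -0.07, -0.16 and 0.15 in WT replicates 1 to 4. For U2AF it was 0.20, -0.15, -0.28 and 0.22 in cKO, and for Prpf8, Snrnp200 and Prpf19 together 0.14, -0.30, -0.17 and 0.19. The mean of Clk1 and Clk4 ran the other way in cKO, at -0.31, 0.17, 0.19 and -0.30. In WT it was 0.20, 0.03, 0.14 and -0.12, and WT replicate 1 was high for both the kinases and the Sm genes. The mean of the SR proteins stayed nearer to 0, at -0.07, 0.04, -0.14 and 0.02 in cKO. It averages genes that differ, as Srsf1 had replicates 1 and 4 above 2 and 3 and Srsf5 had the reverse.

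Markers of cycling cells had the same order of cKO libraries as the median over the 36 genes, and another order in WT. The sum of Mki67, Top2a, Pcna, Mcm2, Ccnb1 and Cdk1 was 502, 421, 275 and 608 CPM in cKO replicates 1 to 4 and 445, 465, 373 and 375 CPM in WT, and none of the 6 was called between genotypes. Among cKO libraries, and among all 8, cKO replicate 3 was lowest and cKO replicate 4 highest for these markers too. Macrophage and Langerhans markers (Adgre1, Csf1r, Cd207, Cd74 and Mrc1) summed to 174, 281, 214 and 75.7 CPM in the same cKO libraries, against 108 to 146 CPM in WT. Sebocyte markers (Mc5r, Awat2, Elovl3 and Far2) summed to 478, 304, 544 and 165 CPM in cKO, against 63.1 to 172 CPM in WT. Melanocyte markers (Dct, Tyrp1, Pmel and Mlana) summed to 103, 48.8, 87.8 and 49.3 CPM in cKO, all above the 28.1 to 46.4 CPM of WT, though no marker was called. T cell markers summed to 7.16 to 22.3 CPM in cKO and 6.99 to 40.4 CPM in WT, and neutrophil markers to 6.58 to 29.997 CPM and 18.7 to 35.9 CPM. The part of these cells in the levels of the splicing genes was not tested.

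**Figure D4:**
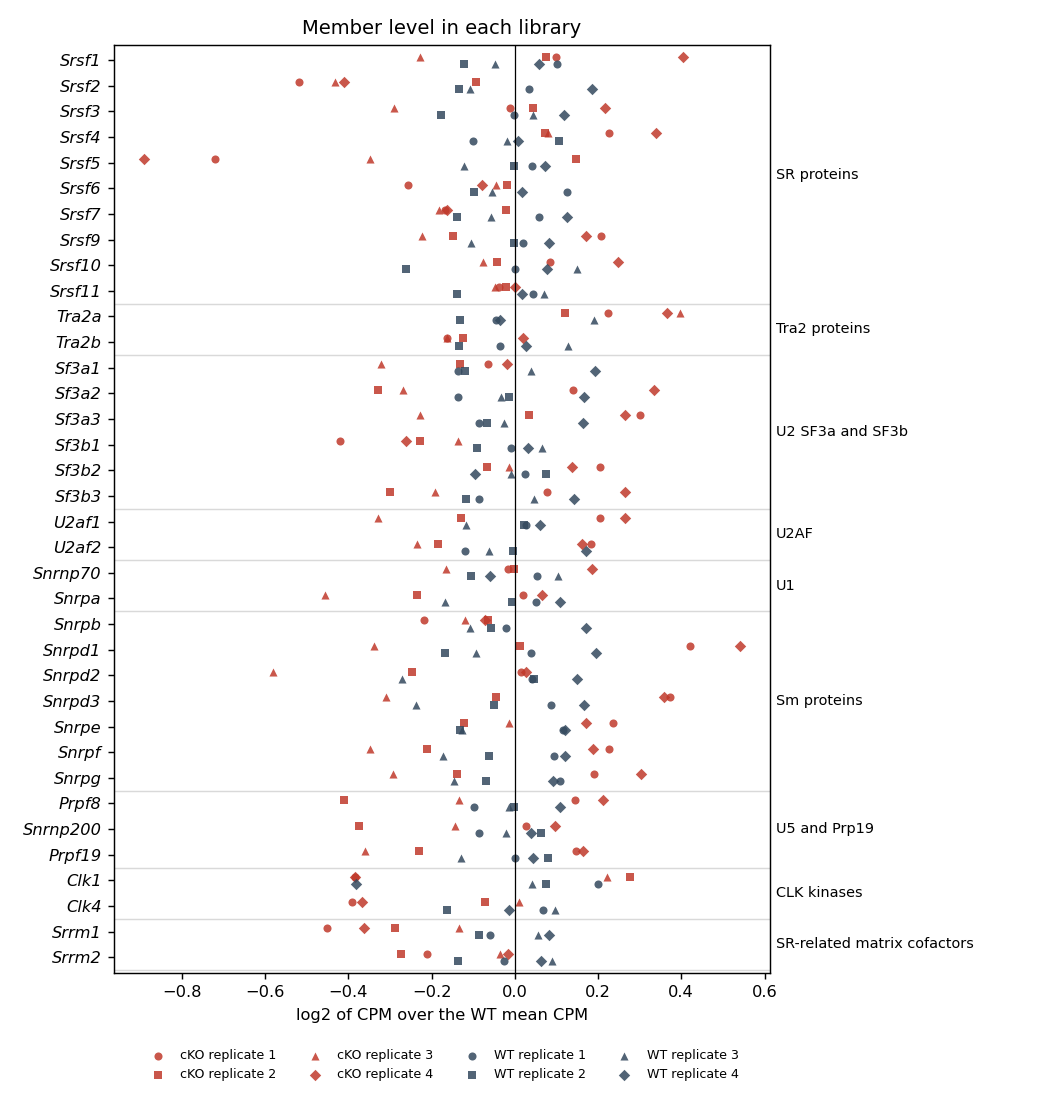
Log2 of CPM over the WT mean (x axis) for each gene in each library, with genes on the y axis grouped by role, cKO in red, WT in dark blue and replicates by shape. The cKO triangles (replicate 3) lie to the left and the cKO diamonds (replicate 4) to the right in most snRNP genes, and this order turns in Clk1 and Clk4.

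The rest of the machinery was followed in 113 further genes in 7 lists, of which 112 were in the table and 110 passed the filter. None of the 110 was called by edgeR, 69 had a positive and 41 a negative log2 fold change, and the median was 0.06. An unadjusted p below 0.05 was found for 12 (10.9%, against 18.6% of all tested genes). Genotypes did not overlap for 10 genes (9.09%, against 11.1% of all tested genes), 6 of them higher in cKO and 4 lower. DESeq2 called 4, among them Txnl4a, Zmat5 and Sf1, where it called 8.63% of all tested genes.

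These genes were also among the 4 with the smallest p by edgeR. Txnl4a, a small U5 protein needed before activation of the spliceosome, stood at 47.6, 26.7, 26.1 and 39.4 CPM in cKO replicates 1 to 4 and at 20.5, 19.6, 21.8 and 19.9 CPM in WT replicates 1 to 4. Every cKO library was above every WT library, and replicates 1 and 4 stood highest (0.77 ± 0.19 SE, edgeR adjusted p = 0.0772). Without cKO replicate 2 the adjusted p of Txnl4a was 0.0408 by edgeR. Zmat5, a protein of the U11/U12 snRNP of the minor spliceosome, stood at 7.46, 6.19, 6.27 and 6.80 CPM in cKO replicates 1 to 4 and at 4.59, 4.92, 3.75 and 4.76 CPM in WT replicates 1 to 4 (0.57 ± 0.16, edgeR adjusted p = 0.102).

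On the lower side, Sf1, the branch-point binding protein that precedes U2, stood at 107, 119, 114 and 122 CPM in cKO replicates 1 to 4 and at 135, 133, 150.4 and 148 CPM in WT replicates 1 to 4 (-0.29 ± 0.09 SE, edgeR adjusted p = 0.121). The genotypes did not overlap.

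By list, none of the 18 tested SR kinase, SR-like and matrix cofactor genes was called, with 4 positive and 14 negative (median -0.09). The 17 further U1, U2 and branch-site genes split 9 to 8 (median 0.08), and the 22 tri-snRNP genes 15 to 7 (0.10). Prp19 complex, helicase and second-step genes were positive in 17 of 22 (0.07), exon junction complex genes in 4 of 5 (0.17) and snRNP assembly and Cajal body genes in 13 of 18 (0.08). Of the 8 minor spliceosome genes 7 were positive (median 0.24), 4 had an unadjusted p below 0.05 (18.6% of all tested genes) and 3 did not overlap (11.1% of all tested genes), and none passed by edgeR. The median over all tested genes was 0.01, with 51.9% positive.

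**Figure D5:**
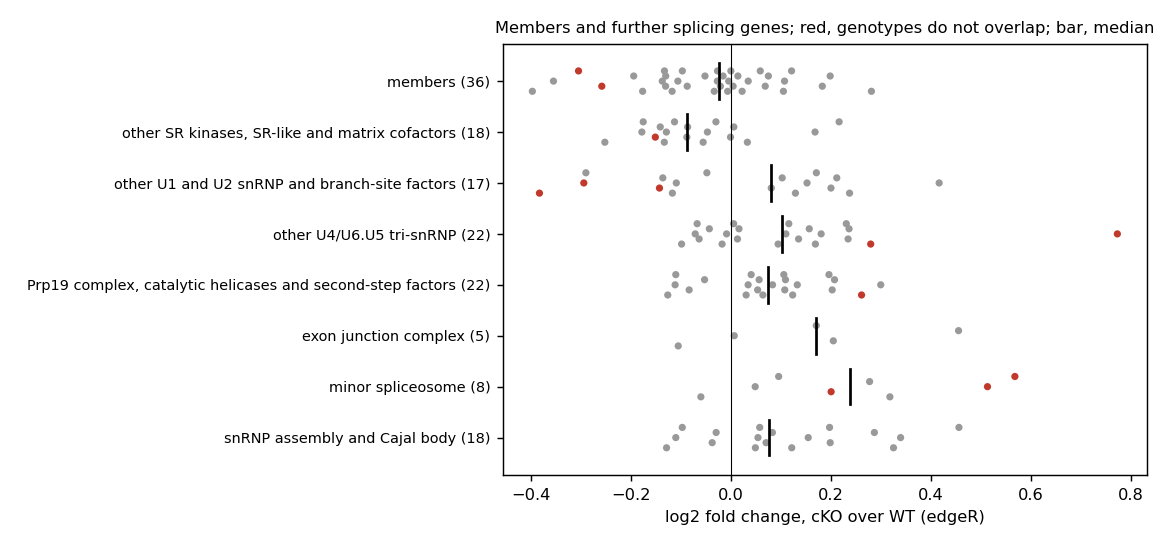
Log2 fold change (cKO over WT, edgeR, x axis) of the 36 genes and of each list of further splicing genes, 1 point per gene, with the number tested in brackets and the list median as a black bar. Red points are genes whose genotypes do not overlap, 2 of the 36 and 10 of the 110.

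Fold changes of splicing genes differed with gene length, as implied by the deposited counts and FPKM. Among the 110 further genes, 24 of the 25 under 1500 bases had a positive log2 fold change (median 0.20), against 35 of 54 between 1500 and 4000 bases (0.06) and 10 of 31 at 4000 bases or more (-0.09). Spearman's rho across these 110 genes was -0.49, as a description, since genes of 1 library set are not independent. Among the 36 the positive counts were 6 of 8, 4 of 13 and 4 of 15 (rho -0.25). The same split over all tested genes gave 58.1%, 51.7% and 50.1% positive (rho -0.04), and over tested genes in the CPM range of the 36 it gave 60.5%, 47.3% and 43.1% (rho -0.09). Of the 36, the implied lengths of the Sm genes ran from 393 bases (Snrpg) to 1583 bases (Snrpb), while Srrm1 had 5808 and Sf3b1 7507 bases. This split was added after the values were seen, and the part of length in any fold change was not tested.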

How the data were processed

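Total RNA libraries of mouse epidermis were measured in 8 samples, grouped by the genotype in their labels (cKO and WT, 4 each). The authors deposited whole-number read counts per gene symbol, which are not normalized, and FPKM values for each library. HISAT2 and HTSeq are named, per the submitters' processing notes, but the sources used here give no versions, genome build or strand setting. The deposited FPKM gave 1 implied gene length in all libraries for 20863 of 20863 genes within a relative tolerance of 1e-04, so they hold the same reads.

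The 36 genes, the lists and the tests were chosen with earlier results of these data known. After filterByExpr and TMM scaling, 14004 genes were tested with edgeR 4.0.16 (quasi-likelihood, R 4.3.3, no covariate), with Benjamini-Hochberg adjustment over all of them and a threshold of 0.05. Standard errors are those implied by the F statistic. The test was checked on simulated data with changes of 2-fold or more, larger than any fold change of the 36 genes. Smaller changes were not simulated, so the check does not show whether the test could call them. Centred log2 CPM used a prior of 0.5. Paralog ratios used a two-sided exact permutation test over 70 splits. Alternatives were DESeq2 1.42.0, limma-voom (limma 3.58.1), RLE factors, no filter on low counts, library size alone, a floor of 1 CPM in 4 libraries, the replicate number as a block, and each library left out. Limma was also run on deposited FPKM with a pseudocount of 1 or of 0.1, keeping genes that average 0.5 FPKM or more, and with the pseudocount of 1 on every gene.

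Per-library values were given for Hnrnpu and, by role, for the gene with the smallest p, the gene with the highest mean CPM, and genes without overlap. Further splicing genes were named if among the 4 smallest p, of which 1 is not reported here. Genes named outside these rules were chosen after their values were seen, namely Srsf1, Srsf5, Srsf11 and Snrpd1. Replicates are mice per the design text. No pair of libraries of 1 genotype agreed within sampling noise (the closest pair had a chi-square of 47.9 per degree of freedom).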

Additional observations from a re-analysis of the deposited data

Results flagged for a closer look

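Among 74 groups of 4 values (Hnrnpu and the 36 splicing genes in each genotype), 1 had a library far from the other three, where chance gives about 1 in 20, or 3.7. Srsf7, an SR protein that acts in mRNA export, stood at 120.5 CPM in cKO replicate 2, while the other cKO libraries lay between 107.9 and 109.3 CPM.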

How the results depend on the processing

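The 185 genes called over the whole table became 1208 with DESeq2, 349 without the low-count filter and 19 with limma on unfiltered log2(FPKM + 1), and ran from 8 to 506 when 1 library was left out (8 without WT replicate 3, 506 without cKO replicate 2). Of the 36 splicing genes 0 were called by edgeR, 2 with DESeq2 and 0 to 1 with 1 library left out, the 1 being Srsf5 without cKO replicate 2. Of the further splicing genes 4 were called with DESeq2 and 0 to 1 with 1 library left out (Txnl4a without cKO replicate 2). The number of the 36 with no overlap was 2. It was 1 with library size only and with limma on log2(FPKM + 1), on log2(FPKM + 0.1) and on unfiltered log2(FPKM + 1). On FPKM the 1 gene was Srsf2, while Srrm1 and Sf3b1 overlapped. With 1 library left out the number was 2 to 5. Their median log2 fold change of -0.02 was 0.047 with library size only and ran from -0.092 (without cKO replicate 4) to 0.050 (without cKO replicate 3). The cause of these shifts was not tested. Srrm1, Sf3b1, Srsf2 and Tra2a kept their sign in all 18 alternatives. The number of genes with the larger SD in cKO ran from 28 to 33.

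Of 648 fits of single genes under the alternatives, 568 kept their sign and side of the threshold, 3 became called and 77 turned sign, in 16 genes with log2 fold changes near 0. With limma-voom Srsf3 was -0.0068. With library size only Srsf11 was 0.036, Sf3a2 0.068, Sf3b3 0.051, U2af2 0.060, Snrpf 0.049, Prpf8 0.046, Prpf19 0.014 and Clk1 0.022. Without the low-count filter Srsf3 was -0.0095 and Snrnp70 -0.0051. With at least 1 CPM in 4 libraries Sf3a2 was 0.015, U2af2 0.012 and Snrpf 0.0030. On log2(FPKM + 1), with and without the filter, Srsf11 was 0.034, Sf3a2 0.034, Sf3b3 0.027, U2af2 0.045, Snrpf 0.029, Prpf8 0.017 and Clk1 0.0091. On log2(FPKM + 0.1) Srsf11 was 0.036, Sf3a2 0.034, Sf3b3 0.027, U2af2 0.046, Snrpf 0.029, Prpf8 0.016 and Clk1 0.0091. With the replicate block Srsf3 was -0.0065.

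With each library left out in turn, the log2 fold changes that turned sign ran over these ranges: Srsf9 -0.047 to 0.10, U2af1 -0.062 to 0.14, Snrpg -0.061 to 0.14, Clk1 -0.14 to 0.071, Sf3a2 -0.13 to 0.11, Sf3b3 -0.12 to 0.081, U2af2 -0.066 to 0.077, Snrpf -0.096 to 0.095, Prpf8 -0.11 to 0.10, Snrnp200 -0.15 to 0.016, Prpf19 -0.13 to 0.052, Srsf1 -0.0059 to 0.21, Srsf3 -0.076 to 0.098, Srsf10 -0.0081 to 0.11, Snrnp70 -0.056 to 0.070 and the ratio U2af1/U2af2 -0.018 to 0.068.

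The replicate number as a block called 216 genes and none of the 36. Same-numbered libraries of the 2 genotypes did not deviate together in all 4 pairs (correlations of -0.13, 0.17, 0.10 and 0.26). Such correlations cannot show whether the numbers pair the mice. The block changed no call among the splicing genes. Each of the 36 had at least 708 counts in every library, and 4 mice per genotype also limit the precision.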
